A study of Mus musculus with 2 samples.

Results

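The 8 genes described here are the mouse alpha-like globins Hba-x, Hba-a1 and Hba-a2 and the beta-like globins Hbb-y, Hbb-bh1, Hbb-bh2, Hbb-bs and Hbb-bt. They were chosen by name: the gene identifiers of both gene tables, without their version, were matched to these symbols in the mouse annotation, which found 8 of 8 among 43346 mouse genes. Forebrain was taken from mice at embryonic day 13.5 (E13.5) and its RNA sequenced in 2 libraries of 1 group. All tissue came from the strain B6NCrl, from embryos of both sexes that were pooled, with no genetic change or treatment named. Each library was made from 10 ng of total RNA longer than 200 bases with added spike-in RNA. The libraries are called biological replicates and carry the same donor code, so what the spread between them measures (pools of embryos, dissections or library preparation) cannot be told apart.

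Globin genes are not known for a role in the forming cortex, and their RNA in a piece of embryonic tissue is usually that of the red cells in its vessels. In the mouse embryo the yolk sac first releases large primitive red cells, which carry the embryonic chains from Hba-x, Hbb-y and Hbb-bh1 beside adult alpha chains, and as these cells mature their use of Hbb-bh1 gives way to Hbb-y. The fetal liver then releases definitive red cells, which make almost only the adult chains of Hba-a1, Hba-a2, Hbb-bs and Hbb-bt. Haemoglobin pairs alpha-like with beta-like chains, so a red cell needs both in similar amounts.

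The members lie in 2 clusters on mm10 (GRCm38): the alpha-like genes on the plus strand of chromosome 11, from Hba-x (32276400 to 32278116) over Hba-a1 (32283511 to 32284465) to Hba-a2 (32296489 to 32297298), and the beta-like genes on the minus strand of chromosome 7. There the order along transcription is Hbb-y (103851749 to 103853216), Hbb-bh1 (103841637 to 103843164), Hbb-bh2 (103839124 to 103840520), Hbb-bs (103826534 to 103828096) and Hbb-bt (103812524 to 103813996). In both clusters the embryonic gene comes first and the adult genes come last. How far the members can be told apart by their reads depends on how alike they are. The first 90 coding bases (GENCODE M21, GRCm38, positions counted from the A of the start codon) are given for 1 gene of each kind, with capitals where an alpha-like gene differs from Hba-a2 or a beta-like gene from Hbb-bs. Hba-x lies at chr11:32276664-32276753 and Hba-a2 at chr11:32296524-32296613 on the plus strand; Hbb-y at chr7:103853063-103853152, Hbb-bh1 at chr7:103843021-103843110, Hbb-bh2 at chr7:103840338-103840427 and Hbb-bs at chr7:103827786-103827875 on the minus strand.
Hba-x: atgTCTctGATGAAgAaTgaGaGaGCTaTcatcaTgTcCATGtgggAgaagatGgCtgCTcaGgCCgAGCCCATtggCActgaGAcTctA
Hba-a2: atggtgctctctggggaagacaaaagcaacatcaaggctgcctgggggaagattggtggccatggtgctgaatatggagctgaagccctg
Hbb-y: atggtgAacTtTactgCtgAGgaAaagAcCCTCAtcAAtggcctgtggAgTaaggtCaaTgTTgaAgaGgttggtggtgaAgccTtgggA
Hbb-bh1: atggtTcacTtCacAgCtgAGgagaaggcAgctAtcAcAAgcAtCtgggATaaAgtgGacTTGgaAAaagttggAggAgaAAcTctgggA
Hbb-bh2: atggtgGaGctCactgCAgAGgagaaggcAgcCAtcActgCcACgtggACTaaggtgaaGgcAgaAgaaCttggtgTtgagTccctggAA
Hbb-bs: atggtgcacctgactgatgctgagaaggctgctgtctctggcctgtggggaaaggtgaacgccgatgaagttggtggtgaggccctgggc

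Over the whole coding sequence without the stop codon, Hba-x matched Hba-a2 at 61.5% of 426 bases. Among the beta-like genes, Hbb-y matched Hbb-bs at 74.4% and Hbb-bh1 at 76.4% of 441 bases, and Hbb-bh2 matched Hbb-bs at 70.3%. No stretch of 100 bases was shared between the coding transcripts of Hba-x and Hba-a1, of Hbb-y and Hbb-bs, or of Hbb-y and Hbb-bh1. The adult genes differ from each other far less, at 1 coding base in each pair: C381T from Hba-a1 to Hba-a2 and C417T from Hbb-bs to Hbb-bt. The coding bases around these single differences, with the differing base in capitals, are at chr11:32284313-32284373 (Hba-a1), chr11:32297130-32297190 (Hba-a2), chr7:103826668-103826722 (Hbb-bs) and chr7:103812659-103812713 (Hbb-bt).
Hba-a1: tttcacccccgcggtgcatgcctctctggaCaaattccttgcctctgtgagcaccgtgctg
Hba-a2: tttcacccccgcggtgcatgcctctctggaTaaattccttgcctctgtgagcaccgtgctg
Hbb-bs: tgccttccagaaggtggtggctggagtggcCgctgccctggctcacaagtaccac
Hbb-bt: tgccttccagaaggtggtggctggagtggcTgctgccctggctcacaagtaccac
Of all 100-base stretches of the coding transcript, 56.5% of those of Hba-a1 were also found in Hba-a2 and 74.5% of those of Hba-a2 in Hba-a1. For the beta pair the shares were 62.6% of Hbb-bs in Hbb-bt and 54.8% of Hbb-bt in Hbb-bs. The authors' quantification divides such shared reads by estimate. The standard deviation that it gives for this division was 184 counts in replicate 1 and 186 in replicate 2 for each adult alpha gene, 155 and 136 counts for each adult beta gene, and 0 for Hba-x, Hbb-y and Hbb-bh1. The adult pairs are therefore also given as sums. Summed counts do not depend on the split within a pair. Summed TPM still depends on it to a degree, since the models of a pair differ in length.

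Levels are given as TPM (transcripts of each gene relative to all transcripts, over all rows of the authors' gene table), a measure per length, so that genes can be compared within a library. The total was 35378462 estimated counts in replicate 1 and 36793284 in replicate 2, of which 151525 and 157622 fell to the globins. The label of the tissue was checked on forebrain genes: 7 of 7, among them Fabp7 of radial glia and the basal forebrain gene Dlx1, were at 1 TPM or more in both libraries. Of 7 genes listed for other regions of the nervous system and trunk (En1, En2, Gbx1 and Hox genes), 0 were. Gbx1 was just under that level, at 0.81 and 0.75 TPM from 61 counts in each library, so its absence was not shown and it does not serve as a gene of another region here. The share of all genes at 1 TPM or more was not counted, so counts of list genes at that level, here and below, only describe the lists. With 1 group of 2 libraries there is no test between conditions. Errors are SDs of 2 libraries unless stated otherwise, and the counting intervals and limits cover counting error only. In such a bulk sample, fewer red cells and less globin RNA per red cell cannot be told apart.

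**Figure D1:**
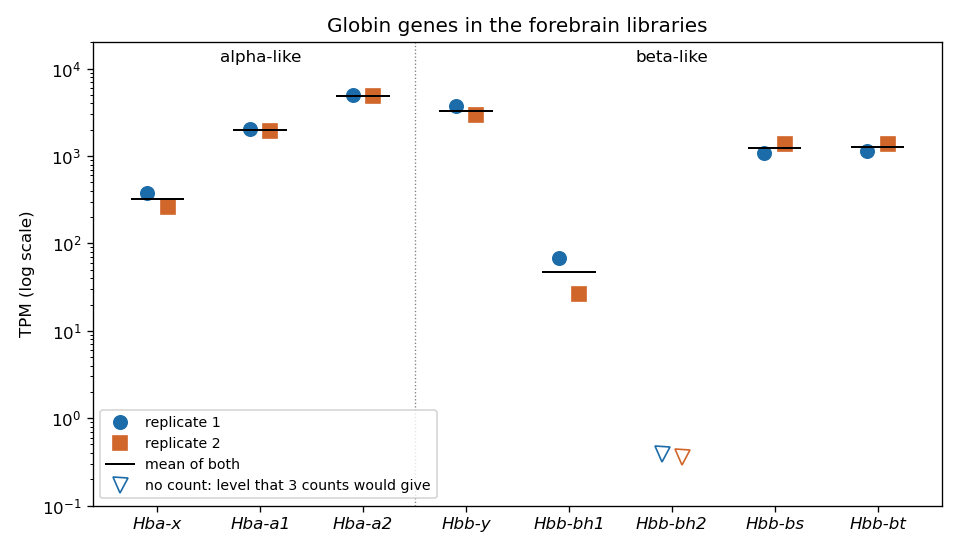
Level of each globin gene in TPM on a log axis, with a circle for replicate 1, a square for replicate 2 and a line at their mean. Hba-a2 is highest, the squares of Hba-x, Hbb-y and Hbb-bh1 lie under the circles, those of Hbb-bs and Hbb-bt above, and Hbb-bh2, with no count, is drawn at the level that 3 counts would give.

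Globin RNA was abundant in the dissected forebrain. The 8 genes together made up 13360 TPM in replicate 1 and 12773 TPM in replicate 2, or 1.34% and 1.28% of all TPM (mean 1.31% ± 0.0416, SD, n = 2). Counted as reads, their share was 0.428% in each library, a lower figure because TPM allows for the short length of these transcripts. Ranked among 21461 nuclear genes that code for proteins, Hba-a2 was number 7 in both libraries and Hbb-y number 10 and 14. Hbb-bh1 was the lowest of the 7 detected members, at rank 2505 in replicate 1 and 5256 in replicate 2. From highest to lowest mean the order was Hba-a2, Hbb-y, Hba-a1, Hbb-bt, Hbb-bs, Hba-x, Hbb-bh1 and Hbb-bh2. Of the neighbours in this order, only Hbb-bt and Hbb-bs had library values that overlapped. The places of the single adult genes rest on the divided reads.

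Hba-x encodes zeta globin, the alpha-like chain of primitive red cells. It was at 382 TPM in replicate 1 and 261 TPM in replicate 2 (mean 321 ± 85.0 TPM, SD, n = 2), from 5685 and 4255 counts. It was the lowest alpha-like gene in both libraries and lower in replicate 2, by 0.55 on the log2 scale.

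Hba-a1 and Hba-a2 encode the adult alpha chain, which red cells of both kinds make. Hba-a2 was at 4938 and 4860 TPM (mean 4899 ± 55.6 TPM, SD, n = 2). Hba-a1 was at 2031 and 1954 TPM (mean 1992 ± 54.9 TPM, SD, n = 2). Hba-a1 thus took 29.1% of the pair in replicate 1 and 28.7% in replicate 2, a split that rests on how shared reads were divided. Their sum was 6969 TPM in replicate 1 and 6813 TPM in replicate 2 (mean 6891 ± 110 TPM, SD, n = 2). The pair was nearly level between the libraries, with a log2 ratio of replicate 2 over replicate 1 of -0.03, which became positive under other scalings (0.10 with edgeR's TMM factors).

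Hbb-y encodes the epsilon-like chain of primitive red cells. It was the highest of the beta-like genes in both libraries, at 3699 TPM in replicate 1 and 2935 TPM in replicate 2 (mean 3317 ± 541 TPM, SD, n = 2), from 46218 and 39978 counts. It was lower in replicate 2, with a log2 ratio of -0.33.

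Hbb-bh1, the beta-like gene that the youngest primitive red cells use most, was far lower than Hbb-y. It was at 68.0 TPM in replicate 1 and 26.3 TPM in replicate 2 (mean 47.2 ± 29.5 TPM, SD, n = 2), from 779 and 328 counts. It was 2.59-fold higher in replicate 1, more than any other member. Hbb-y exceeded it 54.4-fold in replicate 1 and 112-fold in replicate 2. Hbb-bh1 accordingly made up 1.81% of the embryonic beta-like TPM in replicate 1 (1.66% of the counts, exact 95% interval 1.54% to 1.78%) and 0.887% in replicate 2 (0.814% of the counts, 0.728% to 0.906%). The exact binomial intervals of the libraries do not overlap.

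Hbb-bh2 had no count in either library. A count of 0 allows up to 3 counts, which is 0.391 TPM in replicate 1 and 0.359 TPM in replicate 2, so a level under these values was not detectable at this depth. Hbb-bh2 lies between Hbb-bh1 and the adult genes, and every member on either side of it was detected.

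Hbb-bs and Hbb-bt encode the adult beta chain of this haplotype, the beta-like product of definitive red cells. Hbb-bs was at 1087 TPM in replicate 1 and 1367 TPM in replicate 2 (mean 1227 ± 198 TPM, SD, n = 2). Hbb-bt was at 1155 and 1370 TPM (mean 1263 ± 152 TPM, SD, n = 2). The genes contributed almost equally, with Hbb-bs at 48.5% and 49.9% of the pair. Their sum was 2242 TPM in replicate 1 and 2737 TPM in replicate 2 (mean 2489 ± 350 TPM, SD, n = 2). The adult beta pair was thus higher in replicate 2 in TPM, with a log2 ratio of 0.29, but lower there when scaled on the spike-in RNA, at -0.15.

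**Figure D2:**
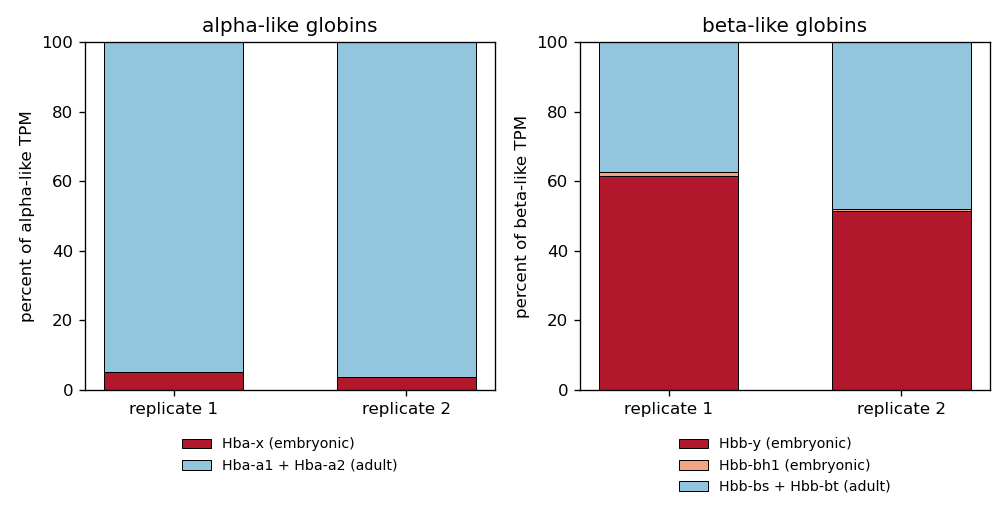
Composition of the alpha-like and beta-like globin TPM in each library, in percent, with embryonic genes in red shades and adult pairs in blue. The embryonic segment takes 5.19% and 3.69% of the alpha-like bars but 62.7% and 52.0% of the beta-like bars.

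The alpha-like and beta-like clusters stood at different points between embryonic and adult use. Of the alpha-like TPM, the embryonic gene Hba-x held 5.19% in replicate 1 and 3.69% in replicate 2 (mean 4.44% ± 1.06, SD, n = 2). Of the beta-like TPM, the embryonic genes held 62.7% in replicate 1 and 52.0% in replicate 2 (mean 57.3% ± 7.58, SD, n = 2). Adult alpha chains were therefore nearly the whole of the alpha-like RNA, while the beta-like RNA was mostly embryonic in both libraries. The gap between the clusters is wider than the difference between the libraries in either of them. On counts, which weigh long transcripts more, the embryonic alpha share was 7.49% (exact 95% interval 7.30% to 7.68%) in replicate 1 and 5.36% (5.20% to 5.52%) in replicate 2. The embryonic beta share on counts was 62.2% (61.8% to 62.5%) in replicate 1 and 51.5% (51.2% to 51.9%) in replicate 2. Both embryonic shares were lower in replicate 2, on TPM and on counts, and the counting intervals of the libraries do not overlap.

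Alpha-like and beta-like RNA stood in nearly the same ratio in both libraries. The alpha-like sum was 7351 TPM and 7075 TPM, the beta-like sum 6009 TPM and 5698 TPM, and their ratio 1.22 and 1.24 (mean 1.23 ± 0.0130, SD, n = 2). On counts the mean ratio was 1.01, so the excess of alpha-like RNA is seen per length and not in reads. Within the adult genes the alpha pair exceeded the beta pair 3.11-fold in replicate 1 and 2.49-fold in replicate 2. Within the embryonic genes it was the reverse: Hba-x was at 0.101 and 0.0883 of the embryonic beta-like sum. The lower embryonic beta-like sum of replicate 2 (3767 TPM against 2961 TPM) stood beside a higher adult beta pair, so that the ratio of embryonic to adult beta-like RNA was 1.68 in replicate 1 and 1.08 in replicate 2. That is a difference of -0.64 on the log2 scale, which does not depend on how the libraries are scaled.

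**Figure D3:**
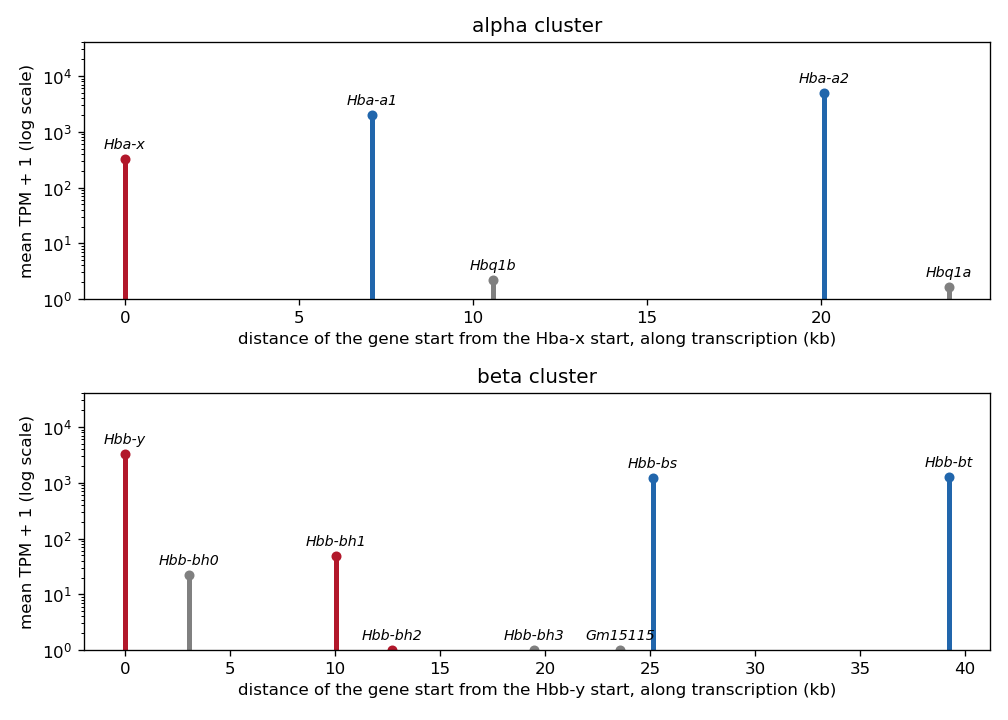
Mean TPM + 1 on a log axis against the distance of each gene's start from the first embryonic gene of its cluster, along transcription, with embryonic members in red, adult members in blue and other genes in grey. In the alpha cluster the level is higher at each next member, while in the beta cluster Hbb-y and the adult pair are high and Hbb-bh2 and Hbb-bh3, with no count, lie between them at 1; Nprl3, Mpg and the genes flanking the beta cluster are outside the drawn range.

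The genes around the clusters were far lower than the main members. Within 50 kb of the alpha-like genes the annotation holds 4 other genes with a row. Nprl3, whose introns hold the main enhancers of the alpha-like genes, was at 44.2 and 38.6 TPM. Mpg, a DNA repair gene beside it, was at 25.6 and 20.3 TPM. Both are expressed in many tissues. The theta-like globins Hbq1a and Hbq1b, which lie among the adult alpha genes, were at 0.72 and 0.53 TPM and at 0.98 and 1.38 TPM, and their fractional counts show that they share reads. Within 50 kb of the beta-like genes 9 others have a row and 7 of them, mostly olfactory receptor genes of the flanks and the pseudogene Hbb-bh3, had no count. The pseudogene Hbb-bh0, between Hbb-y and Hbb-bh1, was at 18.0 and 24.8 TPM, from only 12 and 18 counts on a very short model, so that its TPM is high for so few reads.

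Promoter sequences are given for 3 beta-like genes: the highest (Hbb-y), the undetected one (Hbb-bh2) and an adult one (Hbb-bs). They are from RefSeq (GRCm38.p6), whose promoter entries matched 7 of 8 members, all but Hbb-bh1. They hold bases upstream of the RefSeq start that lie in no annotated exon. All are on the minus strand, at chr7:103853217-103853366 (Hbb-y, -159 to -10), chr7:103840522-103840671 (Hbb-bh2, -150 to -1) and chr7:103827929-103828011 (Hbb-bs, -83 to -1). Capitals mark matches that lie wholly in the window, on either strand, to CCAAT (the CCAAT box), CACCC (the core of sites for KLF1), GATAA (GATA factors), ATAAA (as in a TATA box) and TGACC (as in repeats for the orphan receptors encoded by Nr2c1 and Nr2c2).
Hbb-y: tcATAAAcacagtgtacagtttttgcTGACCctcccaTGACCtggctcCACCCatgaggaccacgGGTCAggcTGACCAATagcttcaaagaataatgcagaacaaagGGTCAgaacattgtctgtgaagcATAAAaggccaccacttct
Hbb-bh2: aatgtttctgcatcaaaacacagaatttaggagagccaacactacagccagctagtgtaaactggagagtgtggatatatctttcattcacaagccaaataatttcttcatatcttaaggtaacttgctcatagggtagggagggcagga
Hbb-bs: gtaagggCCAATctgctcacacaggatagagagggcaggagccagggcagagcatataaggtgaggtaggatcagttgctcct
Over the 250 bases upstream, Hbb-y held 5 matches to TGACC, 1 of which overlaps its CCAAT match, while Hba-x and Hbb-bt held 1 each and Hba-a1, Hba-a2, Hbb-bh2 and Hbb-bs 0. CCAAT was found in Hba-a1, Hba-a2, Hbb-y, Hbb-bs and Hbb-bt, and in neither Hba-x nor Hbb-bh2. CACCC was found in each of these promoters other than that of Hbb-bh2, and GATAA in all 7. These are short motifs: of 32851 RefSeq promoters of the same length, 33.8% held CCAAT, 52.0% CACCC, 22.6% GATAA, 37.3% ATAAA and 35.2% TGACC. The matches are descriptions of the letters and not sites shown to be bound.

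**Figure D4:**
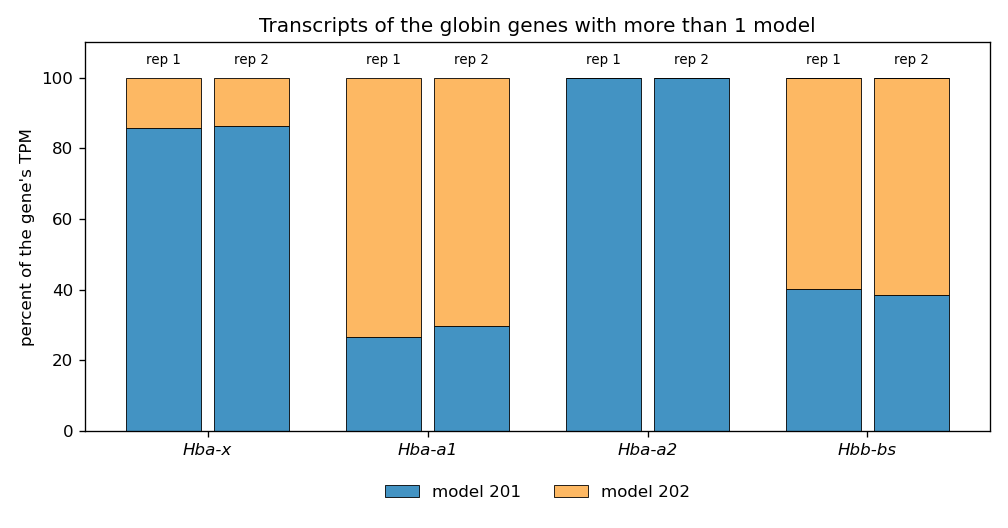
Share of each transcript model in the TPM of its gene, in percent, for the 4 members with more than 1 model, in each library. The blue segment is the main coding model; the orange one is a retained-intron model, except for Hba-x, where it is coding, and takes more than the blue one in Hba-a1 and Hbb-bs in both libraries, while Hba-a2 is almost wholly its coding model.

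At the level of transcripts the 2 adult alpha genes were quantified differently. Hba-a2 was assigned to its coding model at 4938 and 4859 TPM, with 0.63 and 0.56 TPM for its retained-intron model. Hba-a1 was mostly assigned to a model annotated as a retained intron, at 1494 and 1375 TPM, or 73.5% and 70.4% of the gene. Its coding model was at 538 and 578 TPM. The adult beta gene Hbb-bs showed the same kind of split, with 650 and 840 TPM for its retained-intron model and 437 and 527 TPM for its main coding model; a second coding model had no count. Hba-x was divided between a longer coding model, at 327 and 226 TPM, and a shorter one, at 54.4 and 35.6 TPM. Since models of a gene and of its near-identical partner share most of their bases, these are estimates of an assignment and no measure of unspliced RNA. When only coding models were summed, the mean embryonic share was 65.6% of the beta-like and 5.55% of the alpha-like TPM.

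**Figure D5:**
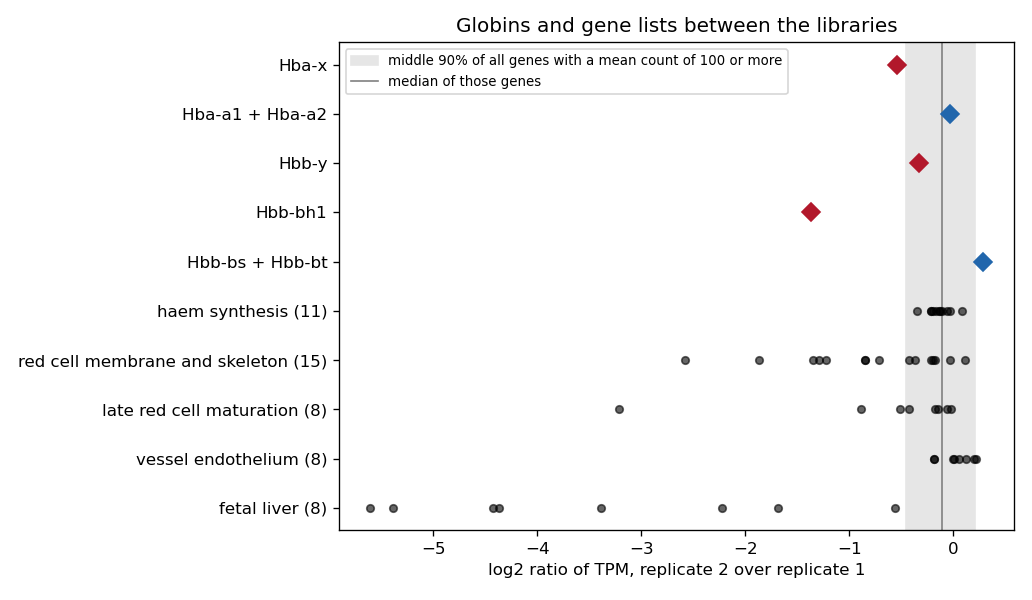
Log2 ratio of TPM, replicate 2 over replicate 1, for the globin features (diamonds, embryonic red and adult blue) and for single genes of 5 lists with a mean count of 10 or more (dots, number of genes in brackets). The grey band holds the middle 90% of all genes with a mean count of 100 or more; Hba-x and Hbb-bh1 lie below it, the adult beta pair above it, and Alb and Fgb of the fetal liver list, with no count in replicate 2, are not drawn.

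In TPM the embryonic globins Hba-x, Hbb-y and Hbb-bh1 were lower in replicate 2 and the adult beta pair was higher, while the adult alpha pair was nearly level. Over 12699 genes with a mean count of 100 or more (each adult pair summed), the median log2 ratio of replicate 2 over replicate 1 was -0.11, 75.3% of genes were lower in replicate 2, and the middle 90% ran from -0.46 to 0.21. Of the 5 globin features with counts, 3 were lower in replicate 2 by at least 0.32 on the log2 scale, namely Hba-x, Hbb-y and Hbb-bh1, against 11.5% of all genes. Of the same 5 features, 0 were higher there by as much, against 2.23% of all genes. At 1.5-fold, 1 of 5 was lower, Hbb-bh1, against 2.43% of all genes, and 0 of 5 were higher, against 0.512%. Hbb-bh1 was among the 0.181% of genes with the lowest ratio, Hba-x among the lowest 3.08% and Hbb-y among the lowest 10.7%. The adult beta pair was among the 2.70% with the highest. The authors' bounds of TPM, whose level is not stated, overlapped between the libraries for Hba-a1 and Hba-a2 and for no other detected member. The share of all genes whose bounds overlap was not counted, so this does not set the globins apart. The bounds need not hold the TPM itself: for Hba-a2 in replicate 1 they were 4760 to 4869, beside 4938 TPM. Scaled with edgeR's TMM factors, which put the median of all genes at 0.01 and 47.5% of them lower in replicate 2, Hbb-bh1 was at -1.25, Hba-x at -0.42, Hbb-y at -0.21 and the adult beta pair at 0.40. On that scale 2 of 5 features, Hbb-bh1 and Hba-x, were lower by at least 0.32, against 4.53% of all genes, and 1 of 5, the adult beta pair, was higher by as much, against 4.41%. Hbb-y did not pass there.

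Other quantities moved between the libraries as well. The spike-in rows took 44770 TPM in replicate 1 and 60586 TPM in replicate 2, so that the globin sum was 0.298 and 0.211 of the spike-in sum. Scaled on them, the median of all genes was -0.54. On that scale 98.9% of all genes were lower in replicate 2, and so was each globin feature. For the lists that follow, over 17273 genes with a mean count of 10 or more the median log2 ratio in TPM was -0.12 and 71.9% of genes were lower in replicate 2. Genes of fetal liver cells were lower in replicate 2 for 10 of 10 members, with a sum of 49.2 TPM in replicate 1 and 17.3 TPM in replicate 2. Trf, the plasma iron carrier, was at 20.2 and 13.7 TPM, the largest part of both sums and most of that in replicate 2, so the sums rest largely on this gene. Afp, alpha-fetoprotein, was at 7.33 and 0.15 TPM. Fgb, a fibrinogen chain, had 25 counts in replicate 1 and 0 in replicate 2, and Alb, albumin, picked with its values known, 192 and 0. The yolk sac makes several of these plasma proteins too. Genes of vessel endothelium did not share this direction, with 3 of 8 lower and 5 of 8 higher in replicate 2 and sums of 153 and 155 TPM. The part of spike-in dose and of liver or other attached tissue in the difference of the embryonic globins was not tested.

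Red cell genes other than globins were read from lists of the pathway, and most were low next to the globins. The red cell membrane and its skeleton are built by transport proteins, anchors and a protein lattice beneath them. In that list 14 of 15 genes were lower in replicate 2, with a median log2 ratio of -0.71. Only 7 of 15 were at 1 TPM or more in both libraries. The median fell on Tmod1, a gene of few counts at 0.41 and 0.25 TPM. Over all genes the median was -0.12 and 71.9% were lower. Add2 and Epb41, skeleton genes that neurons also express, were highest at 85.6 and 74.7 TPM and at 66.1 and 58.3 TPM. Dmtn, an actin-bundling protein, followed at 16.4 and 12.7 TPM. More specific to red cells is Slc4a1, which encodes the anion exchanger band 3 and was picked with its values known. Slc4a1 was at 5.49 and 2.16 TPM, from 543 and 233 counts. It was lower in replicate 2, on the side of Hba-x, Hbb-y and Hbb-bh1, with a log2 ratio of -1.35. Single genes of the list ran from -2.58 (Rhag, 18 and 3 counts) to 0.11 (Epb42, 30 and 19 counts). Alas2, a red cell gene of haem synthesis, was at -0.17.

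Late steps of red cell maturation (loss of mitochondria, expulsion of the nucleus) were covered by 10 genes. Of the 8 with a mean count of 10 or more, 8 were lower in replicate 2, with a median log2 ratio of -0.30, against 71.9% of all genes and a median of -0.12. Bnip3l, which marks mitochondria for removal and is expressed widely, was highest at 436 and 428 TPM. Xpo7 was at 15.0 and 13.6 TPM and Fbxo7 at 12.2 and 10.8 TPM. Trim58, the lowest, had 4 counts in replicate 1 and 0 in replicate 2.

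Haem, the iron-holding group of every globin chain, is made in a chain of enzymatic steps. All 11 listed genes of the pathway were at 1 TPM or more in both libraries. In replicate 2, 10 of 11 were lower, against 71.9% of all genes, and the median log2 ratio was -0.14, near the -0.12 of all genes. Alas2, the erythroid form of the first enzyme, was at 23.67 and 21.01 TPM, and Alas1, the form of all tissues, at 49.7 and 42.9 TPM. Urod was highest at 68.2 and 72.3 TPM and was the gene higher in replicate 2. Alad, Ppox and Uros lay between 38.0 and 58.7 TPM in both libraries. Fech, which inserts the iron, was at 22.7 and 19.8 TPM, and Cpox was lowest at 6.15 and 5.88 TPM. The mitochondrial carriers followed with 32.6 and 25.6 TPM for Slc25a38, which brings in glycine, and 6.23 and 5.37 TPM for Slc25a37, which brings in iron. Many genes of this pathway other than Alas2 are used by most cells, so the levels in this list are not those of red cells alone.

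Iron is stored by ferritin and enters red cell precursors through the transferrin receptor. The ferritin genes were the highest of the iron list, Ftl1 at 5719 and 5537 TPM and Fth1 at 1221 and 1261 TPM. The receptor gene Tfrc was at 35.3 and 26.2 TPM. Tfr2 was lowest at 0.48 and 0.55 TPM. Among genes of redox defence and red cell metabolism, Prdx2, an abundant peroxidase of red cells and of neurons, was at 1369 and 1353 TPM. Cat, catalase, was at 58.6 and 55.2 TPM and Bpgm, which makes the oxygen-release effector of haemoglobin, at 59.3 and 46.0 TPM. Car1, a carbonic anhydrase of adult red cells, had no count in either library.

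Among the transcription factors that switch on red cell genes, those mostly confined to blood cells were low, each under 1.5 TPM in both libraries. Gata1, the master factor of the lineage, was at 0.22 and 0.31 TPM, from 9 and 11 counts. Klf1, which activates the adult beta genes, was at 0.97 and 0.60 TPM, and Nfe2 at 1.33 and 0.46 TPM. Tal1 was at 0.68 and 0.71 TPM, Zfpm1 (the GATA1 cofactor) at 0.41 and 0.39 TPM and Gfi1b, a repressor, at 0.26 and 0.16 TPM. The widely expressed partners were higher. Ldb1, which bridges enhancer and promoter in the globin loci, was at 102 and 101 TPM and Lmo2, also made by endothelium, at 19.5 and 16.2 TPM. Cbfa2t3, a corepressor, was at 14.4 and 13.8 TPM and E2f2, a cell cycle factor, at 9.49 and 7.98 TPM. Of the 9 genes with a mean count of 10 or more, 7 were lower in replicate 2, with a median log2 ratio of -0.07, which is near the background of all genes (71.9% lower, median -0.12).

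Regulators of the change from embryonic to adult globin were mostly well expressed, which cannot be ascribed to red cells, since several serve the brain itself. Bcl11a, which silences embryonic beta-like genes in definitive cells and acts in cortical neurons, was at 135 and 130 TPM. Sox6, its partner in silencing Hbb-y and a factor of interneurons, was at 27.8 and 25.6 TPM. Chd4, a chromatin remodeller, was at 98.6 and 91.2 TPM. Nr2c1 and Nr2c2, the orphan receptor genes named with the promoter motifs, were at 7.16 and 6.30 TPM and at 17.8 and 15.2 TPM. Zbtb7a, another silencer, was at 8.76 and 8.39 TPM and Myb, a factor of definitive progenitors, at 4.62 and 3.97 TPM. Mbd2, a reader of methylated DNA, was at 4.23 and 4.76 TPM. Lin28b, an RNA-binding protein of early development, was at 2.82 and 2.16 TPM. Ikzf1, a blood factor, was at 0.53 and 0.52 TPM. Of the 10 genes 9 were lower in replicate 2, against 71.9% of all genes, with a median log2 ratio of -0.11, near the -0.12 of all genes.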

How the data were processed

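RNA-seq of 2 forebrain libraries (1 group) was used as deposited. Transcriptome alignments to mm10 with GENCODE M4 underlie the tables, per the deposited metadata; the aligner, versions, read length and strandedness: not given in the sources used here. By the column names (per the file headers), the expected count is the authors' estimated count of reads per gene, with shared reads divided between features. TPM, the main unit, and FPKM were computed by the authors over all rows, spike-ins included. The deposited percent column (share of a transcript in its gene) was recomputed from TPM. Their effective length is the length minus 99 bases, so TPM of very short genes is inflated. Per the file headers, the authors' bounds of TPM and standard deviations of counts come with no stated level.

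Of 69691 gene table rows, 43346 were mouse genes and 42462 matched GENCODE M21 (GRCm38) by identifier. Sums, shares and ratios were computed per library (Python 3.11.15, pandas 2.3.3, numpy 2.4.6), exact binomial intervals with scipy 1.17.1 on rounded counts, and alternative scalings with edgeR 4.0.16 and DESeq2 1.42.0 in R 4.3.3, tested on simulated data. Figures used matplotlib 3.10.9. Alternatives were posterior mean TPM, FPKM, counts, coding models only, other totals, folds, minimums and scalings, and leaving out each library.

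The members and lists were chosen with earlier results of these data known. The text names all members and, by rule, all genes of 4 lists (other globins, haem synthesis, erythroid and stage factors), the 3 highest and 1 lowest by mean TPM of each other list, those with no count, the 3 highest genes near the clusters and all transcripts above 0. Hbq1a and Hbq1b count under other globins. A few genes under this rule are not reported here, and Slc4a1 and Alb were named after their values were seen. Ahsp was not analysed here.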

Additional observations from a re-analysis of the deposited data

How the results depend on the processing

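The mean embryonic alpha share (4.44%) was 6.42% on counts and 5.55% on coding models, and the mean embryonic beta share (57.3%) was 65.6% on coding models. The alpha-like to beta-like ratio (1.23) was 1.01 on counts and 1.13 on coding models. The globin share (1.31% of all TPM) was 1.38% of mouse TPM, 1.63% of protein-coding TPM and 0.428% of counts. The 1 globin feature past 1.5-fold between libraries became 3 at a threshold of 0.32 (log2), in TPM and with TMM, and 3 with spike-in scaling. At 1.5-fold, 373 of 12699 genes were past the threshold in TPM, 192 in log2(TPM + 1) and 5018 with spike-in scaling; with a mean count of 10 or more it was 1947 of 17273. At 2-fold it was 71 genes, and at 0.32 (log2) 1739 in TPM and 1135 with TMM. The log2 difference between libraries in embryonic over adult beta-like RNA (-0.64) was -0.60 on coding models. The log2 ratio of the adult alpha pair (-0.03) was 0.0355 in FPKM, 0.10 with TMM and 0.10 with DESeq2's size factors, and that of the adult beta pair (0.29) was -0.15 with spike-in scaling. The scales of replicates 1 and 2 were 0.9995 and 1.0005 with TMM and 1 and 1 with DESeq2. Both scalings are thus nearly the unscaled counts and are not separate checks. Leaving out each library gave 3.69% to 5.19% for the embryonic alpha share, 52.0% to 62.7% for the embryonic beta share, 1.22 to 1.24 for the ratio and 1.28% to 1.34% for the globin share. These ranges are the values of the libraries themselves. FPKM, leaving out Hbb-bh2 and setting members under 1 TPM to 0 cannot move the shares or the ratio and show nothing about their stability. Spike-in scaling, TMM at the lower threshold, the ratios of single members under other scalings and the coding-model value of the beta-like difference were added after seeing the data. No paired analysis was possible because the libraries form 1 group. With 2 libraries an SD is itself imprecise, and levels under 3 counts (0.391 and 0.359 TPM for Hbb-bh2) are beyond this depth.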

Other observations

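Globins of cells other than red cells were low. Cygb, cytoglobin of fibroblast-like cells and some neurons, was at 7.39 TPM in replicate 1 and 7.65 TPM in replicate 2, and Ngb, neuroglobin, at 0.88 and 0.54 TPM. Mb, myoglobin of muscle, had 5 counts in replicate 1 and 2 in replicate 2. The sum of these 3 genes with Hbq1a and Hbq1b was 10.2 TPM in each library, against 13360 and 12773 TPM for the 8 globins of the clusters.

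Genes of other blood cells were lower than the main globins. Of the platelet lineage, Pf4, a platelet chemokine, was highest at 20.6 and 17.6 TPM, followed by the receptor subunits Gp1bb at 5.24 and 5.37 TPM and Itga2b at 3.18 and 2.36 TPM, and Gp6 had 1 count in each library. Of the white cell list, Coro1a, also made by neurons, was at 61.3 and 63.3 TPM. The granule protease Prtn3 was at 13.4 and 10.5 TPM, S100a8 at 3.07 and 1.83 TPM, and the T cell gene Cd3e had no count. The fractional counts of Prtn3 (219.26 and 188.26) show that it shares reads. Mpo and Elane, also granule genes, were near the floor, at 0.38 and 0.13 TPM and at 4 and 0 counts. Genes of early blood progenitors that other tissues share were higher, with Meis1 at 39.6 and 23.7 TPM, Cd34 at 27.9 and 26.1 TPM and Kit at 19.5 and 20.4 TPM, while Flt3 had 5 and 6 counts. Endothelium, which lines the vessels that hold the red cells, was represented by Egfl7 at 47.0 and 41.4 TPM, Cldn5 at 37.6 and 43.8 TPM and Esam at 24.9 and 25.9 TPM, with Tek lowest at 4.75 and 5.16 TPM.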
